A study of Mus musculus with 15 samples.

Results

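Transcripts of 10 glycolytic enzymes (Hk1, Hk2, Pfkl, Pfkp, Aldoa, Aldoc, Pgk1, Eno1, Pkm and Ldha) were followed across all 15 RNA libraries of the study. The members were picked by gene symbol from the 78298 genes listed for each library, and all 10 were found once and passed the filter on low counts that left 17560 genes for testing. They were chosen as enzymes of 1 pathway, with earlier results of these data known.

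Organoids grown from small intestinal crypts of female C57BL/6J mice aged 8 to 16 weeks carried lentiviral transgenes driven by the L30 promoter, in 5 conditions with 3 poly-A libraries each, harvested 5 days after seeding. Halo-NLS organoids expressed V5-tagged HaloTag with a nuclear localization signal, and SOX9-Halo_budding and SOX9-mEGFP_budding organoids expressed SOX9, a transcription factor of intestinal stem and progenitor cells, joined to HaloTag or to the fluorescent protein mEGFP. SOX9-Halo_spheroid and SOX9-mEGFP_spheroid are later cultures of these lines with a spherical shape, and each also carried a histone H2B transgene (H2B-mEGFP in the SOX9-Halo line and H2B-mScarletI in the SOX9-mEGFP line). All lines carried puromycin resistance, and each construct was studied in 1 stable line, so replicates are harvests of a line at nearby passages and p-values measure the spread between harvests. Shape, time in culture and the second transgene changed together within each line and cannot be told apart.

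Glycolysis splits glucose into pyruvate in a fixed series of enzymatic steps and yields ATP without oxygen. Several steps have isozymes encoded by separate genes. Hkdc1 and Pklr are among the forms used in the intestinal epithelium, whereas Hk1, Hk2, Aldoa and Pkm are used by most other tissues and by dividing cells. Lactate dehydrogenase A turns pyruvate into lactate and regenerates NAD+. Genes of this pathway are known targets of hypoxia-inducible factors (HIF), which bind DNA at a short core sequence.

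The hexokinase genes Hk1 and Hk2 were the only members called higher in the spheroids of both lines, so their promoters are shown with that of Ldha, the member with the most HIF core matches. Each window holds the 250 bases before the start of the Ensembl canonical transcript (GRCm39), written 5′ to 3′ along the gene, with capitals marking the HIF core (ACGTG or GCGTG on either strand). The windows lie on the minus strand at chr10:62176322-62176571 (Hk1), on the minus strand at chr6:82751453-82751702 (Hk2) and on the plus strand at chr7:46495013-46495262 (Ldha).
Hk1: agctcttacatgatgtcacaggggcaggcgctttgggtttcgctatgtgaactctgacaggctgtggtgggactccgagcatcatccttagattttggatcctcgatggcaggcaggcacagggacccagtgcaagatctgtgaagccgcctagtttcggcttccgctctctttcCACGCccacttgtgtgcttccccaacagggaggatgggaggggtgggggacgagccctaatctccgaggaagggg
Hk2: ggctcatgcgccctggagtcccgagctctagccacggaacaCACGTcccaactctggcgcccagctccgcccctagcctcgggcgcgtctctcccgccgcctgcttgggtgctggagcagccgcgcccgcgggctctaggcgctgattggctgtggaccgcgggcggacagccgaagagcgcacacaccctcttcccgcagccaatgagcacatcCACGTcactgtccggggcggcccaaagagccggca
Ldha: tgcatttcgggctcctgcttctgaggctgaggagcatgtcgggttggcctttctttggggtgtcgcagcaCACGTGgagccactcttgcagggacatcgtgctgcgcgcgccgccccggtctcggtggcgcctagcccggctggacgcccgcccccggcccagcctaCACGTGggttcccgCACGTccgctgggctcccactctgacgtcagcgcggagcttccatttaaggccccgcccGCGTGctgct
The core matched once in the Hk1 window, 2 times in that of Hk2 and 6 times in that of Ldha, where matches on opposite strands overlap within CACGTG. The windows of Pfkp, Pgk1, Aldoa and Eno1 also held matches, and those of Pfkl, Aldoc and Pkm held none. At least 1 match stood in 51.9% of the same windows of 13210 tested protein-coding genes. The SOX motifs ACAATG and ACAAAG matched in none of these 3 windows, in that of Eno1 among the other members, and in 19.4% of all windows. A match is a description of letters only. Hk1 has other annotated starts further upstream, and counts per gene do not show which start was used.

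Counts per library on genes ran from 28062722 to 40559766 (median 33491297). The values below are normalized counts, that is counts scaled by TMM to the mean library. Calls required 3 things together, namely an edgeR p of 0.01 or less after Benjamini-Hochberg adjustment, a change of 1 or more on the log2 scale in either direction, and 10 or more normalized counts on average. Sox9, whose reads from the transgene and the endogenous gene were not separated, checked the labels. It was at 515, 769 and 305 in Halo-NLS, 1336, 10538 and 6838 in SOX9-Halo_budding, 11368, 11086 and 6487 in SOX9-mEGFP_budding, 10522, 14834 and 14812 in SOX9-Halo_spheroid and 8726, 16922 and 23654 in SOX9-mEGFP_spheroid. Every SOX9 library stood above the Halo-NLS libraries, with SOX9-Halo_budding replicate 1 the lowest of them. Xist, the RNA of the inactive X chromosome, stood apart by line. It ran from 1150 to 14450 in the 6 SOX9-Halo libraries and from 0 to 6.23 in the other 9, while 4 Y-linked genes (Ddx3y, Uty, Kdm5d and Eif2s3y) had 1 count in all 15 libraries together.

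The 10 members took 0.908% to 2.77% of the counts of a library. SOX9-Halo_budding replicate 3 held the lowest value of its condition for 10 of 10 members, Halo-NLS replicate 1 also for 10, and SOX9-mEGFP_budding replicate 3 and SOX9-Halo_spheroid replicate 3 for 9. In SOX9-mEGFP_spheroid the lowest value fell on replicates 1, 2 and 3 for 2, 5 and 3 members. In bulk RNA, fewer cells of a type and less RNA per cell cannot be told apart.

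**Figure D1:**
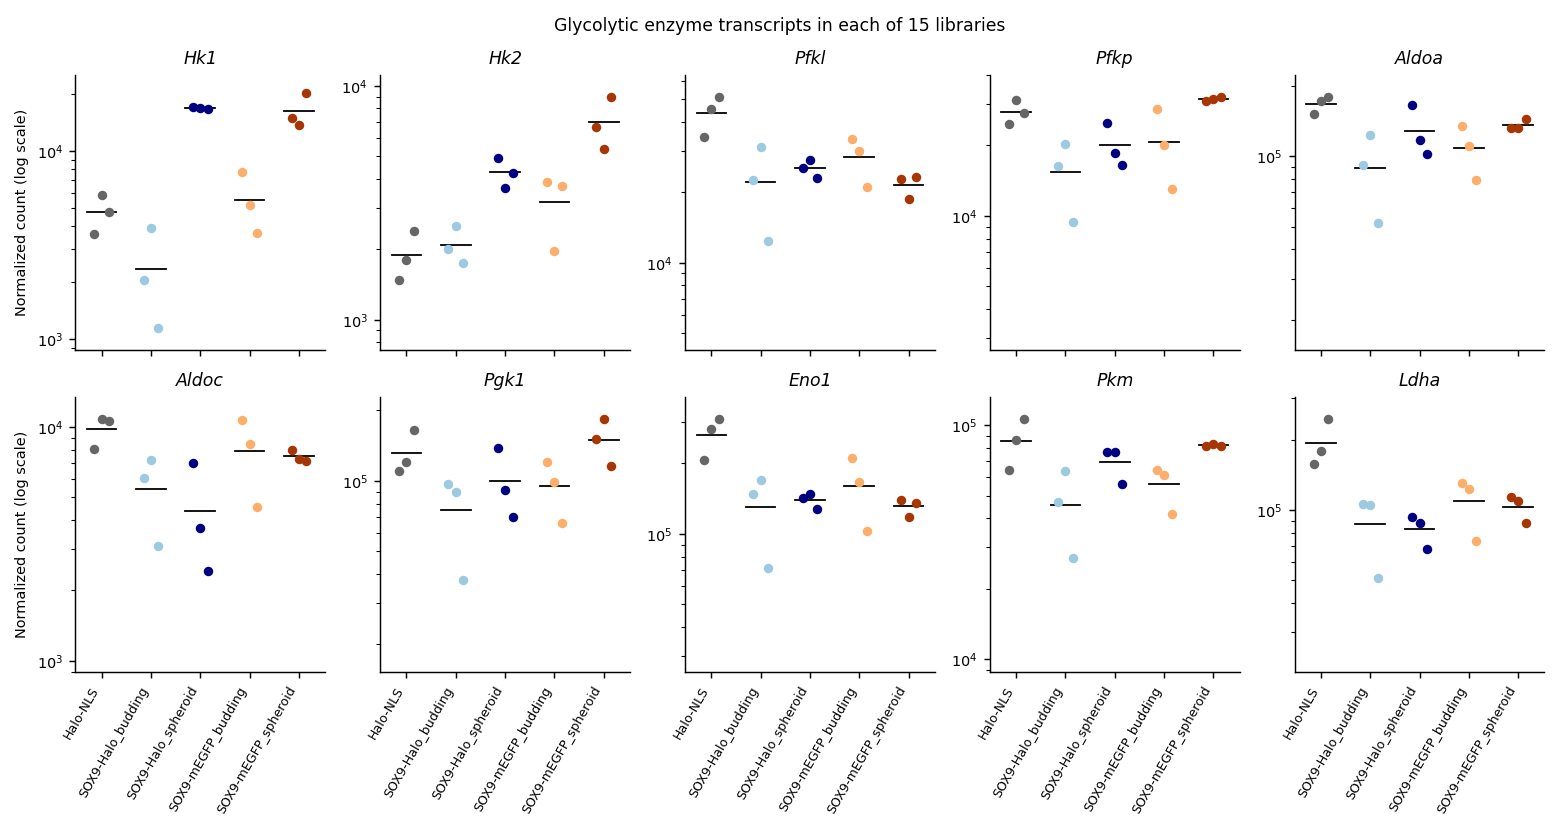
Normalized count (log axis) of each of the 10 enzymes in every library, by condition, with 1 point per library and a bar at the mean of 3. All 6 spheroid libraries stood above all 9 others for Hk1, and the other members overlapped more.

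Hexokinases trap glucose in the cell as glucose 6-phosphate. Hk1, the widely expressed form bound to mitochondria, was at 3601, 5850 and 4716 in Halo-NLS, 2061, 3903 and 1141.5 in SOX9-Halo_budding, 7767, 5136 and 3645 in SOX9-mEGFP_budding, 17205, 16961 and 16835 in SOX9-Halo_spheroid and 14900, 13734 and 20421 in SOX9-mEGFP_spheroid. The 6 spheroid libraries did not overlap with any other library. From budding to spheroid Hk1 rose 7.18-fold in the SOX9-Halo line (log2 2.84, SE 0.39, edgeR adjusted p = 3.00e-05) and 2.96-fold in the SOX9-mEGFP line (log2 1.57, SE 0.37, edgeR adjusted p = 0.00496). There this call was lost when any 1 library other than SOX9-mEGFP_budding replicate 1 was left out, with a log2 fold change of 1.29 to 1.65 and an edgeR adjusted p of 0.0104 to 0.0360. The larger rise in the SOX9-Halo line was not called as a difference between the lines (log2 1.28, SE 0.52, edgeR adjusted p = 0.138).

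Hk2, the insulin- and hypoxia-responsive form, was at 1485, 1795 and 2386 in Halo-NLS, 2008, 2504 and 1740.5 in SOX9-Halo_budding, 3879, 1975 and 3734 in SOX9-mEGFP_budding, 4898, 3660 and 4259 in SOX9-Halo_spheroid and 6643, 5374 and 8938 in SOX9-mEGFP_spheroid. Within each line all spheroid libraries were above all budding libraries. Hk2 rose 2.05-fold in the SOX9-Halo line (log2 1.04, SE 0.28, edgeR adjusted p = 0.00738) and 2.19-fold in the SOX9-mEGFP line (log2 1.13, SE 0.28, edgeR adjusted p = 0.00635). Both calls lay near the thresholds. With the replicate number as a block within the SOX9-Halo line, an alternative chosen after seeing the data, Hk2 was no longer called in either line (edgeR adjusted p = 0.0125 and 0.0112), and Hk1 stayed called in both. Hk2 also lost its call in the SOX9-Halo line when any library other than SOX9-Halo_budding replicate 2 was left out (log2 0.93 to 1.09), and in the SOX9-mEGFP line when SOX9-mEGFP_budding replicate 2 or 3 or SOX9-mEGFP_spheroid replicate 1 or 3 was left out (log2 0.85 to 1.20).

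The ratio of Hk2 to Hk1 counts was 3.94-fold lower in SOX9-Halo_spheroid than in SOX9-Halo_budding without overlap (exact permutation p = 0.1, two-sided, the smallest that 3 against 3 allow, and 0.2 after Benjamini-Hochberg adjustment over 6 isozyme ratios). In the SOX9-mEGFP line it was 1.37-fold lower with overlap (exact permutation p = 0.5, adjusted 0.6).

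Thus 2 of 10 members were called in each line, both higher, where 25.3% of all tested genes were called in the SOX9-Halo line (10.5% higher) and 16.4% in the SOX9-mEGFP line (8.55% higher). Spheroid libraries stood above budding libraries without overlap for 2 members in the SOX9-Halo line (24.6% of all tested genes) and for 4 in the SOX9-mEGFP line (Hk1, Hk2, Pfkp and Pkm, 23.9% of all tested genes). The median log2 fold change of the 10 members was 0.40 and 0.44, against -0.08 and -0.04 over all tested genes. Without Hk1 and Hk2, set apart because they were the members called here, the medians of the other 8 members were 0.29 and 0.13. That split fixed in advance that 0 of the 8 were called in either line. At an unadjusted p under 0.05 that number was 1 in the SOX9-Halo line (Pkm) and 0 in the SOX9-mEGFP line, and DESeq2 called 0 of them.

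**Figure D2:**
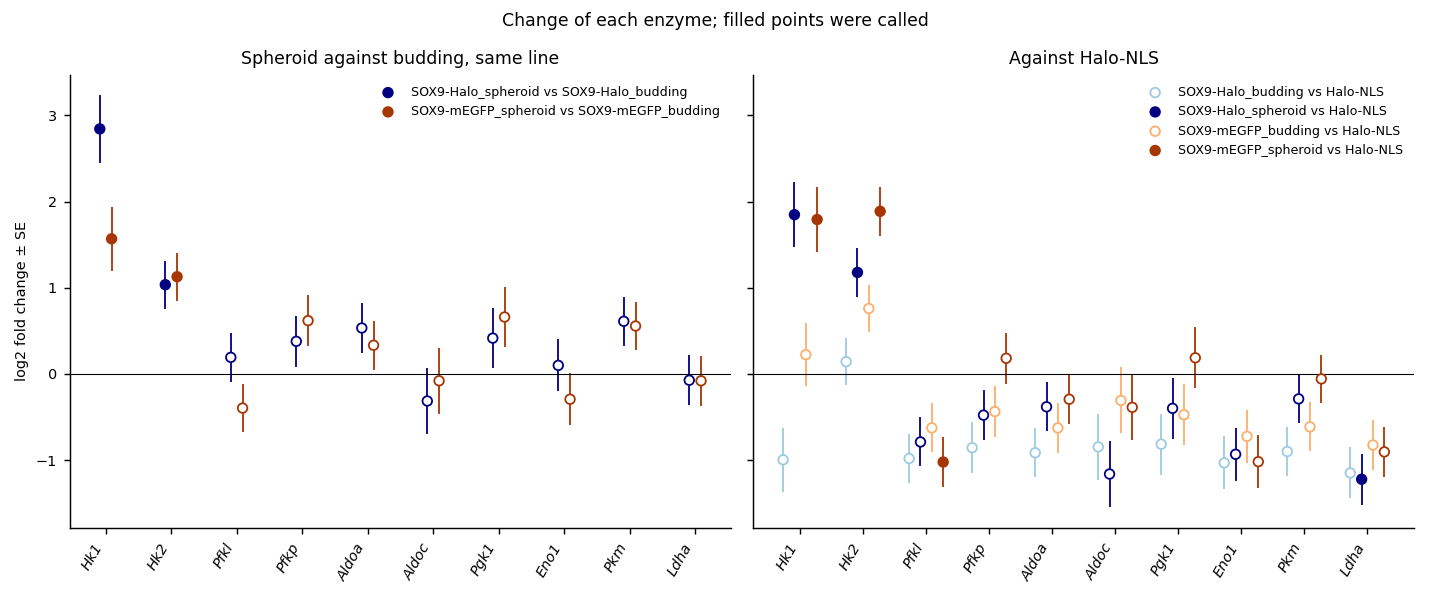
log2 fold change with its SE (vertical lines) of each enzyme, for spheroid against budding within a line (left) and for each SOX9 condition against Halo-NLS (right), with filled points called. Hk1 and Hk2 were called in every spheroid comparison shown, and within lines the other 8 enzymes lay between -0.40 and 0.66.

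Phosphofructokinase commits sugar to glycolysis. Pfkl, the liver-type subunit, was at 34608, 45550 and 51015 in Halo-NLS, 22686, 31399 and 12341 in SOX9-Halo_budding, 33686, 30159 and 21150 in SOX9-mEGFP_budding, 25369, 27516 and 23016 in SOX9-Halo_spheroid and 22740, 18697 and 23151 in SOX9-mEGFP_spheroid. All Halo-NLS libraries were above the libraries of each SOX9 condition. The change within lines was 0.19 on the log2 scale (SE 0.28) and -0.40 (SE 0.28), with edgeR adjusted p = 0.629 and 0.358. Pfkl was called lower than in Halo-NLS in SOX9-mEGFP_spheroid (log2 -1.02, SE 0.29, edgeR adjusted p = 0.00857), a call lost when any 1 library other than Halo-NLS replicate 1 was left out (log2 -0.90 to -1.09), with scaling by library sizes alone (log2 -0.76) and without the filter on low counts (log2 -0.95).

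Pfkp, the platelet-type subunit, was at 24712, 31266 and 27634 in Halo-NLS, 16367, 20366 and 9447 in SOX9-Halo_budding, 28670, 20145 and 12965 in SOX9-mEGFP_budding, 24884, 18603 and 16535 in SOX9-Halo_spheroid and 31036, 31647 and 32146 in SOX9-mEGFP_spheroid. SOX9-mEGFP_spheroid libraries were close to each other and above all budding libraries of that line, but the change was not called (log2 0.62, SE 0.29, edgeR adjusted p = 0.142). The ratio of Pfkp to Pfkl counts was 2.10-fold higher in SOX9-mEGFP_spheroid than in SOX9-mEGFP_budding, with no overlap (exact permutation p = 0.1, two-sided, the smallest that 3 against 3 allow). In the SOX9-Halo line that ratio was 1.10-fold higher with overlap (exact permutation p = 0.7). Over the 6 isozyme ratios tested, Benjamini-Hochberg adjustment gave 0.2 for a p of 0.1 and 0.7 for a p of 0.7. Of the canonical Pfkp transcript 42.5% overlaps Pitrm1 on the other strand and 24.2% of Pfkl overlaps Cfap410, and reads that fall on both genes of such a pair are left out by the counting used.

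Aldolases split fructose 1,6-bisphosphate. Aldoa, the muscle-type form, ranged from 150960 to 178700 in Halo-NLS (median 172230). It was at 91964, 122600 and 51701 in SOX9-Halo_budding, 134690, 111030 and 79405 in SOX9-mEGFP_budding, 165360, 117620 and 102320 in SOX9-Halo_spheroid and 132460, 132250 and 144760 in SOX9-mEGFP_spheroid. Spheroid and budding libraries overlapped in both lines (log2 0.53, SE 0.29 and log2 0.33, SE 0.28, edgeR adjusted p = 0.156 and 0.458). By the GENCODE M39 annotation 86.1% of its canonical transcript lies under Gm57854, a gene model on the same strand. The deposited counts also list Gm57854, with 1292 counts over all libraries. The Aldoa level therefore rests on the remainder if that gene had the same exons in the authors' annotation.

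Aldoc, the brain-type form, was at 8067, 10766 and 10545 in Halo-NLS, 6020, 7217 and 3093 in SOX9-Halo_budding, 10710, 8476 and 4548 in SOX9-mEGFP_budding, 7028, 3700 and 2409 in SOX9-Halo_spheroid and 7976, 7319 and 7163 in SOX9-mEGFP_spheroid. Spheroid and budding libraries overlapped in both lines (log2 -0.31, SE 0.38, edgeR adjusted p = 0.554 against budding, and log2 -0.08, SE 0.38, edgeR adjusted p = 0.916 in the SOX9-mEGFP line). The ratio of Aldoc to Aldoa counts was 1.94-fold lower in SOX9-Halo_spheroid than in SOX9-Halo_budding without overlap (exact permutation p = 0.1, adjusted 0.2) and 1.28-fold lower in the SOX9-mEGFP line with overlap (exact permutation p = 0.2, adjusted 0.3).

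Phosphoglycerate kinase makes the first ATP of the pathway. Pgk1 was at 110030, 120610 and 164430 in Halo-NLS, 97222, 89623 and 37738 in SOX9-Halo_budding, 120340, 98485 and 65761 in SOX9-mEGFP_budding, 138130, 91214 and 70187 in SOX9-Halo_spheroid and 151250, 183170 and 115350 in SOX9-mEGFP_spheroid. Conditions of each line overlapped (log2 0.42, SE 0.35 and log2 0.66, SE 0.35, edgeR adjusted p = 0.381 and 0.197). Pgk1 is the X-linked member (chromosome X, 105230706 to 105247305, GRCm39). Its mean was lower in the SOX9-Halo line, where Xist was detected, than in the SOX9-mEGFP line, both in budding (log2 -0.34, SE 0.35) and in spheroids (log2 -0.59, SE 0.35), and neither difference was called (edgeR adjusted p = 1.0 and 0.261). The part of X-chromosome state in its level was not tested.

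Enolase dehydrates 2-phosphoglycerate. Eno1 had the highest mean count of the members, at 207920, 279660 and 308710 in Halo-NLS, 147600, 170670 and 71277 in SOX9-Halo_budding, 211550, 167000 and 103310 in SOX9-mEGFP_budding, 142100, 147400 and 127810 in SOX9-Halo_spheroid and 139290, 118660 and 135190 in SOX9-mEGFP_spheroid. Spheroid libraries lay within the range of the budding libraries of their line (log2 0.10, SE 0.30 and log2 -0.29, SE 0.30, edgeR adjusted p = 0.825 and 0.550).

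Pyruvate kinase makes pyruvate and the last ATP. Pkm, whose M1 and M2 splice forms are not separated by counts per gene, was at 64453, 85964 and 105780 in Halo-NLS, 46833, 63369 and 27043 in SOX9-Halo_budding, 64519, 61286 and 41616 in SOX9-mEGFP_budding, 76852, 76579 and 56148 in SOX9-Halo_spheroid and 81308, 83110 and 81762 in SOX9-mEGFP_spheroid. The SOX9-mEGFP_spheroid libraries were above all budding libraries of their line, and in the SOX9-Halo line 2 of 3 were. Neither change was called (log2 0.61, SE 0.28 and log2 0.56, SE 0.28, edgeR adjusted p = 0.102 and 0.174).

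Ldha was at 157970, 179180 and 243950 in Halo-NLS, 106120, 104920 and 51037 in SOX9-Halo_budding, 130550, 123450 and 74047 in SOX9-mEGFP_budding, 92950, 87745 and 68440 in SOX9-Halo_spheroid and 113320, 109200 and 87875 in SOX9-mEGFP_spheroid. Every SOX9 library was below every Halo-NLS library. Within lines the values overlapped (log2 -0.07, SE 0.29 and log2 -0.08, SE 0.29, edgeR adjusted p = 0.867 and 0.885). Against Halo-NLS, Ldha was called lower in SOX9-Halo_spheroid (log2 -1.22, SE 0.30, edgeR adjusted p = 0.00327), a call lost without Halo-NLS replicate 3 (log2 -1.02, edgeR adjusted p = 0.0178), without SOX9-Halo_spheroid replicate 2 (log2 -1.28, edgeR adjusted p = 0.0101) or replicate 3 (log2 -1.12, edgeR adjusted p = 0.0170), and with scaling by library sizes alone (log2 -0.93).

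The comparisons with Halo-NLS share the Halo-NLS libraries, so their values are given side by side. In SOX9-Halo_spheroid 3 of 10 members were called (28.9% of all tested genes, 13.6% higher and 15.3% lower), namely Hk1 (log2 1.85, SE 0.38) and Hk2 (log2 1.18, SE 0.28) higher and Ldha lower. In SOX9-mEGFP_spheroid 3 of 10 were called (27.5% of all tested genes, 15.3% higher and 12.1% lower), namely Hk1 (log2 1.79, SE 0.38) and Hk2 (log2 1.89, SE 0.29) higher and Pfkl lower. Hk1 in both and Hk2 in SOX9-mEGFP_spheroid stayed called when any 1 library of these comparisons was left out. In SOX9-Halo_spheroid Hk2 lost its call without Halo-NLS replicate 1, without Halo-NLS replicate 2 and without SOX9-Halo_spheroid replicate 1, and with the block within the SOX9-Halo line Hk1 alone was called. Without overlap, 2 members (Hk1 and Hk2) were higher in each spheroid condition than in Halo-NLS (26.5% of all tested genes in SOX9-Halo_spheroid and 29.5% in SOX9-mEGFP_spheroid). Lower without overlap were 4 in SOX9-Halo_spheroid (Pfkl, Aldoc, Eno1 and Ldha, 28.4% of all tested genes) and 5 in SOX9-mEGFP_spheroid (the same and Aldoa, 27% of all tested genes). Of the members not called, Eno1 was at log2 -0.93 (SE 0.31) and -1.02 (SE 0.31) in SOX9-Halo_spheroid and SOX9-mEGFP_spheroid, with all libraries below Halo-NLS (edgeR adjusted p = 0.0203 and 0.0129). In SOX9-mEGFP_spheroid Eno1 was called lower by DESeq2, in the fit of the compared libraries only, with the block within the SOX9-Halo line and without Halo-NLS replicate 1. Aldoc was at log2 -1.16 in SOX9-Halo_spheroid (edgeR adjusted p = 0.0225), and was called lower with the replicate block over all conditions (log2 -1.31), without the filter on low counts (log2 -1.09) and without SOX9-Halo_spheroid replicate 1 (log2 -1.67). Pkm was at log2 -0.29 and -0.06, and with scaling by library sizes alone or without the filter on low counts the SOX9-mEGFP_spheroid value turned to 0.21 and 0.0142.

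In the budding organoids 0 members were called against Halo-NLS in either line, where 3.75% (SOX9-Halo) and 2.76% (SOX9-mEGFP) of all tested genes were called. At an unadjusted p under 0.05 there were 9 members in SOX9-Halo_budding (37.5% of all tested genes) and 6 in SOX9-mEGFP_budding (34.4%). DESeq2 called 1 (Ldha) and 0, beside 1602 and 1197 of its 52932 genes. All 8 members other than Hk1 and Hk2 were lower in SOX9-Halo_budding than in Halo-NLS without overlap between libraries (14.9% of all tested genes were), with log2 fold changes of -0.81 to -1.15, and 5 of them had an adjusted p of at most 0.05 (7.59% of all tested genes were lower at that p). Their median was -0.91, against 0.01 over all tested genes. In SOX9-mEGFP_budding the 8 had log2 fold changes of -0.31 to -0.82, and 3 (Pfkl, Aldoa and Ldha) did not overlap with Halo-NLS (15.4% of all tested genes were lower without overlap).

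Between the lines 0 members were called in either state, where 13.2% of all tested genes were called between the spheroids and 0.456% between the budding organoids. At an unadjusted p under 0.05 there were 2 members in each (Hk2 and Pfkp, Hk1 and Hk2), beside 35% and 8.37% of all tested genes. DESeq2 called 0 members in each, beside 2626 and 196 of its 52932 genes. As a test of the line difference itself, the interaction of line and state was called for 0 members (7.39% of all tested genes), with a difference of -0.24 to 0.59 for the 8 members other than Hk1 and Hk2. DESeq2 also called 0 (1712 of its 52932 genes), and 1 member (Hk1) had an unadjusted p under 0.05 (23.9% of all tested genes).

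Transcripts of different genes were compared per length, as CPM per kb of the canonical transcript. In Halo-NLS, Ldha stood at 3635 ± 840.5 (SD, n = 3), Eno1 at 3449 ± 674 and Aldoa at 3299 ± 286, followed by Pgk1 at 2150 ± 471 and Pkm at 1040 ± 252. These top 3 did not differ beyond their spread, but their order rests on the length used. Of the canonical transcripts, 86.1% of Aldoa, 29.41% of Ldha and 38.4% of Pkm lie under other gene models of GENCODE M39, and 0% of Eno1 and Pgk1. With only the unshared bases as length, an alternative chosen after seeing the data, Aldoa stood at 23740 ± 2059 CPM per kb. Ldha was then at 5149 ± 1191 and Pkm at 1688 ± 408.4, with Eno1 and Pgk1 as before. The counts cover all exons of a gene, also those outside the canonical transcript, so this length can overstate a level. For Aldoa it was 210 bases, while its exons of all transcripts span 5378 bases, 2355 of them shared. Pfkl (318 ± 60.7), Pfkp (193 ± 22.7), Aldoc (105 ± 16), Hk1 (32.9 ± 7.83) and Hk2 (7.22 ± 1.75) were lower. Hk1 stood at 118 ± 1.31 in SOX9-Halo_spheroid and 114 ± 24.9 in SOX9-mEGFP_spheroid, above Aldoc (46.8 ± 25.5 and 80.1 ± 4.62), while Hk2, at 16.3 ± 2.37 and 26.7 ± 6.91, had the lowest mean level per length of the 10 in both.

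Other enzymes of these steps included Hkdc1 and Pklr, which fell in both lines. Of 19 other enzymes examined here, 15 were tested, among them Bpgm and Ldhd, which act beside the glycolytic steps. Of the 15, 2 rose and 3 fell in the SOX9-Halo line (25.3% of all tested genes were called), against 2 and 2 in the SOX9-mEGFP line (16.4% of all tested genes). Hkdc1, a hexokinase of intestinal epithelium, was at 8011, 9999 and 4195 in SOX9-Halo_budding and at 11.8, 9.46 and 15.3 in SOX9-Halo_spheroid (log2 -9.22, SE 0.54, edgeR adjusted p = 8.68e-09). In the SOX9-mEGFP line it was at 14381, 11080 and 4624 in budding and 1625, 1625 and 1864 in spheroids (log2 -2.56, SE 0.38, edgeR adjusted p = 0.000134).

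Pklr, the pyruvate kinase of liver and gut, was at 62207, 85929 and 31179 in SOX9-Halo_budding and 614, 414 and 360 in SOX9-Halo_spheroid (log2 -7.01, SE 0.59, edgeR adjusted p = 2.20e-07). Pklr in the SOX9-mEGFP line was at 88913, 72241 and 22379 in budding and 13653, 11003 and 8519 in spheroids (log2 -2.47, SE 0.48, edgeR adjusted p = 0.00104). For Hkdc1 and Pklr the groups did not overlap in either line.

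**Figure D3:**
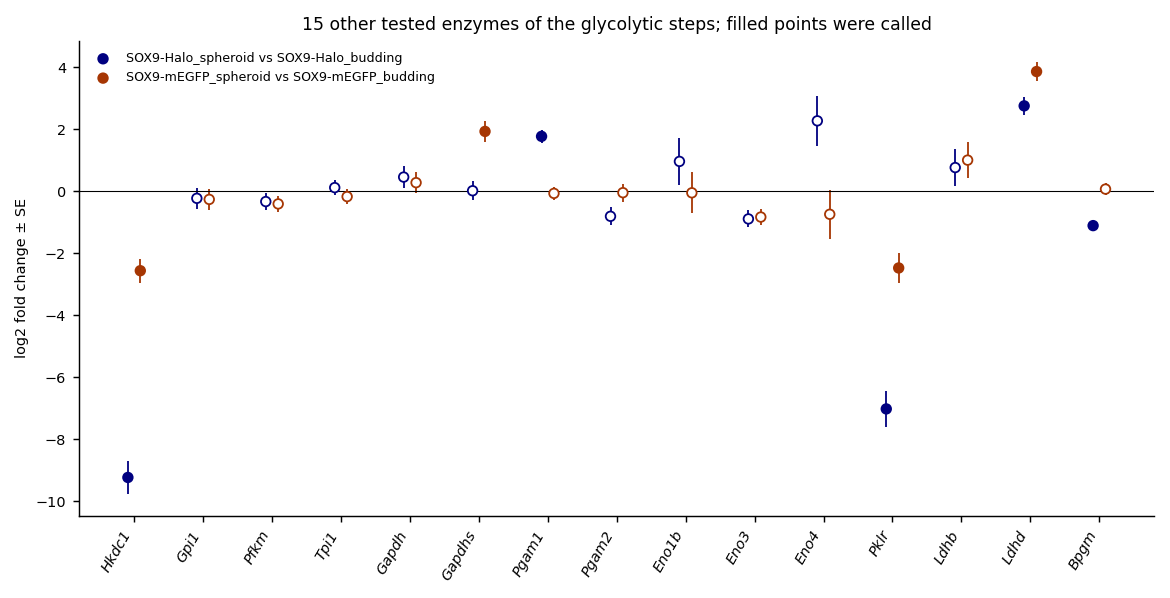
log2 fold change with its SE (vertical lines) from budding to spheroid, in both lines, for 15 tested enzymes beside the 10 members, with filled points called. They belong to the glycolytic steps, except Bpgm and Ldhd, which act beside them. Hkdc1 and Pklr were called lower in both lines, and Ldhd was called higher in both.

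The shares of Hk1 and Pkm beside these isozymes were higher in spheroids of both lines. As a share of the summed per-length level of Hk1, Hk2 and Hkdc1, Hk1 made up 15.8% to 22.4% in SOX9-Halo_budding and 86.4% to 89.4% in SOX9-Halo_spheroid. Hk1 in the SOX9-mEGFP line went from 26.1% to 32.2% in budding to 72.6% to 74.0% in spheroids. The summed level of these 3 genes was 50.1 to 121 CPM per kb in SOX9-Halo_budding and 132 to 139 in SOX9-Halo_spheroid, and 78.8 to 191 and 130 to 192 in the SOX9-mEGFP line. Pkm made up 50.8% to 54.9% of the summed level of Pkm and Pklr in SOX9-Halo_budding and 99.4% to 99.6% in SOX9-Halo_spheroid, with 50.4% to 72.3% and 89.3% to 93.1% in the SOX9-mEGFP line. The summed level of these 2 genes was 600 to 1520 CPM per kb in SOX9-Halo_budding and 687 to 941 in SOX9-Halo_spheroid. In the SOX9-mEGFP line it was 701 to 1560 in budding and 1070 to 1110 in spheroids, so budding and spheroid ranges overlapped in both lines. Of the canonical transcripts, 36.1% of Pklr overlaps Hcn3 on the other strand and 38.4% of Pkm lies under other gene models. On unshared bases alone the Pkm share was 51.7% to 55.8% and 99.5% to 99.6% in the SOX9-Halo line and 51.3% to 73.0% and 89.6% to 93.3% in the SOX9-mEGFP line. Per kb of canonical transcript the ratio of Pfkp to Pfkl was 1.3 to 1.61 in SOX9-mEGFP_spheroid and 0.516 to 0.934 in the other 12 libraries. On unshared bases it was 1.71 to 2.12 in SOX9-mEGFP_spheroid, and it also passed 1 in SOX9-Halo_spheroid replicate 1 (1.23) and SOX9-mEGFP_budding replicate 1 (1.07). Ldha held 99.5% or more of the summed level of Ldha and Ldhb, and Eno1 99.7% or more of that of Eno1, Eno2 and Eno3, in every library.

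**Figure D4:**
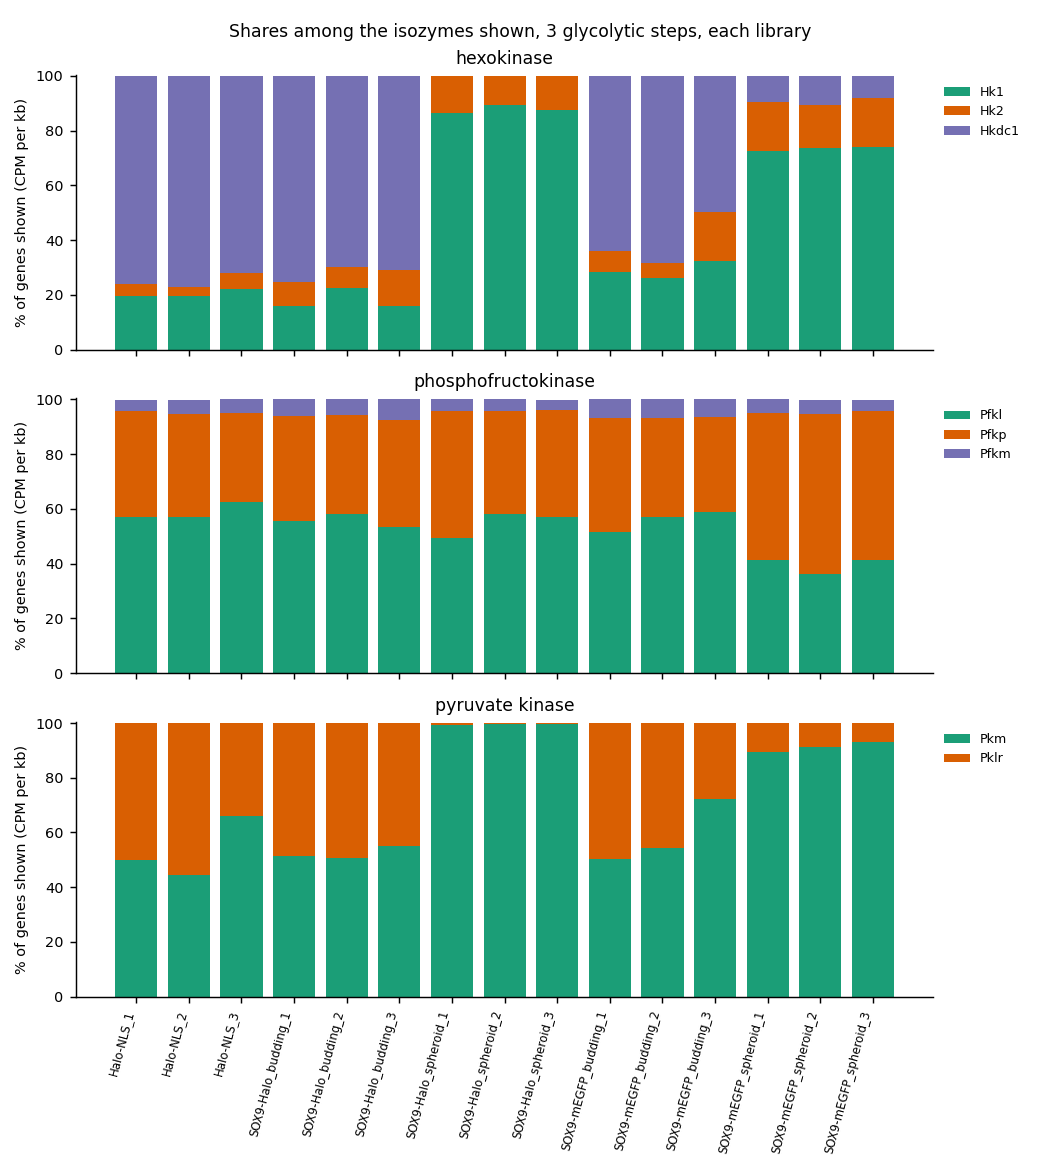
Share of each isozyme in the summed CPM per kb of the genes shown (bars stacked to 100%), in each of 15 libraries, for 3 steps. Of the genes shown, spheroid libraries hold mainly Hk1 and Pkm, while the phosphofructokinase shares moved less and Pfkp had the larger share in all 3 SOX9-mEGFP_spheroid libraries.

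Of the remaining enzymes, Pgam1, the phosphoglycerate mutase between Pgk1 and Eno1, was at 6773, 8904 and 5180 in SOX9-Halo_budding and 26734, 23580 and 21173 in SOX9-Halo_spheroid (log2 1.78, SE 0.22, edgeR adjusted p = 1.02e-05). In the SOX9-mEGFP line its budding and spheroid libraries overlapped (log2 -0.06, SE 0.21, edgeR adjusted p = 0.877). Bpgm, which makes 2,3-bisphosphoglycerate, fell in the SOX9-Halo line (log2 -1.10, SE 0.19, edgeR adjusted p = 0.000198). Ldhd, the mitochondrial dehydrogenase of D-lactate, rose in both lines (log2 2.76, SE 0.28 and log2 3.87, SE 0.30, edgeR adjusted p = 1.54e-06 and 3.12e-07). Gapdhs, the sperm form, was called higher in the SOX9-mEGFP line (log2 1.94, SE 0.34, edgeR adjusted p = 0.00053) from a mean of 7.59 to 29.3 normalized counts. Gpi1, Pfkm, Tpi1 and Gapdh had log2 fold changes of -0.40 to 0.46 within lines and were not called, and neither were Pgam2, Eno1b, Eno3, Eno4 and Ldhb. By GENCODE M39, 81.5% of the canonical Gapdh transcript overlaps Iffo1 and 100% of that of Pgam2 overlaps Dbnl, each on the other strand. The counts of Gapdh and Pgam2 may thus miss most of their reads. Hk3, Pgk2, Ldhc and Eno2 were not tested, Hk3 and Pgk2 with a normalized count of 0 in every library.

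Other genes of glucose use were taken from lists of known function. Among 10 tested glucose and lactate carriers 3 were called in each line, all lower, namely Slc5a1, the sodium-driven glucose importer (log2 -8.84, SE 0.82 and log2 -4.60, SE 0.67), the fructose carrier Slc2a5 (log2 -8.18, SE 0.53 and log2 -6.35, SE 0.48) and Slc2a2, the carrier that releases sugars to the blood (log2 -10.28, SE 0.83 and log2 -3.64, SE 0.57), each value for the SOX9-Halo line first. Of 9 regulators of glycolytic flux 3 were called lower in the SOX9-Halo line and 2 in the SOX9-mEGFP line. Mlxipl, a carbohydrate-responsive transcription factor (log2 -9.20 and -3.53), and Pfkfb4, an enzyme that sets fructose 2,6-bisphosphate (log2 -3.83 and -3.02), were called lower in both, and Gckr was called in the SOX9-Halo line (log2 -4.23, SE 1.03, and -3.66, SE 1.16, without a call). Of 14 genes of pyruvate entry into mitochondria, Pdk2 was called lower in both lines (log2 -1.39 and -1.42) and Pdk4 in the SOX9-Halo line (log2 -4.89 and -0.83), both kinases that switch off pyruvate dehydrogenase.

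Of 8 gluconeogenesis genes 5 fell and 1 rose in the SOX9-Halo line, against 4 and 2 in the SOX9-mEGFP line. The muscle fructose bisphosphatase gene Fbp2 fell in both (log2 -2.25 and -1.59), Slc37a4, a glucose 6-phosphate transporter of the endoplasmic reticulum, was called lower in the SOX9-Halo line (log2 -2.04 and -1.27), and Pck2, the mitochondrial form of its enzyme, was called higher in the SOX9-mEGFP line (log2 0.98 and 1.26). Named after their values were seen, Fbp1, Pck1 and G6pc1 fell and Pcx, pyruvate carboxylase, rose in both lines. Of 7 pentose phosphate genes only the X-linked G6pdx, the first enzyme of that route, was called, in the SOX9-Halo line (log2 1.96 and 0.86). Among 21 tested hypoxia-inducible genes outside glycolysis 2 rose and 2 fell in the SOX9-Halo line, and 4 rose and 0 fell in the SOX9-mEGFP line. Ndrg1 fell in the SOX9-Halo line (log2 -2.26 and -0.37), and Ero1a (log2 1.39 and 2.02) and Egln3 (log2 1.43 and 1.85) were called higher in the SOX9-mEGFP line. Of 12 other upstream regulators only Mycn was called, lower in the SOX9-mEGFP line (log2 0.63 and -4.17). Of 12 proliferation genes 0 were called in either line, with a median of 0.38 and -0.28. Within the lists, shares called stood beside a background of 25.3% and 16.4%.

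Cell type markers moved with the shift in isozymes. Of 7 enterocyte markers 7 fell in the SOX9-Halo line and 5 in the SOX9-mEGFP line, for example Fabp1 (log2 -10.68 and -5.45), Sis (log2 -10.49 and -4.10) and Apoa4 (log2 -10.42, and -1.83 without a call). Their summed level was 3480 to 7240 CPM in SOX9-Halo_budding and 1.97 to 5.74 in SOX9-Halo_spheroid, and 1300 to 6240 and 205 to 513 in the SOX9-mEGFP line, and their part in the change of the isozymes was not tested. Of 7 epithelial markers, Krt18 rose in both lines (log2 1.85 and 1.47), while Epcam (log2 -1.07 and -0.07) and Vil1 (log2 -3.15 and -0.32) were called lower in the SOX9-Halo line. The epithelial list summed to 5340 to 11600 CPM over all 15 libraries. Lists of fibroblast, immune, endothelial, erythroid and neuronal markers each summed to at most 11.2 CPM in every library and the muscle list to at most 32.1 CPM, and in SOX9-Halo_spheroid the defining genes Dcn, Col1a2, Lum, Ptprc, Cd3e, Cdh5 and Kdr had at most 3 counts in each library. Of them, Pdgfrb (log2 -3.71 and -4.50), Acta1 (log2 -7.46 and -2.17) and Snap25 (log2 -4.23 and -4.41) fell in both lines, Tubb3 fell in the SOX9-mEGFP line (log2 -0.30 and -2.43), Cd68 rose in both (log2 2.10 and 1.78), Csf1r rose in the SOX9-mEGFP line (log2 -1.0 and 5.67) and Des in the SOX9-Halo line (log2 5.97 and 1.23).

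Across the 15 libraries the 8 members other than Hk1 and Hk2 varied together. Over their 28 pairs, Pearson's r of log2 CPM ran from 0.534 to 0.979 with a median of 0.756. Hk1 or Hk2 with those 8 gave r of -0.281 to 0.672 over 16 pairs, with a median of 0.159, so the ranges overlapped. Hk1 reached 0.54 with Pgk1, 0.558 with Aldoa, 0.606 with Pfkp and 0.672 with Pkm. With Pfkl, Aldoc, Eno1 and Ldha it gave 0.0117 to 0.104, and with Hk2 0.808. No reference over other gene pairs was taken. Libraries of a condition share a line and passage, so these values describe the libraries. Genes most like each member over the 15 libraries were other glycolytic genes for Aldoa (Gapdh, r = 0.980), Ldha (Tpi1, r = 0.972) and, as second, Pfkl (Tpi1, r = 0.927). For Hk1 they were Tst (r = 0.968) and Capn5 (r = 0.967), for Hk2 Habp2 (r = 0.935) and Ly6e (r = 0.934), for Pfkp Rbp4 (r = 0.967) and Ldaf1 (r = 0.963), for Aldoc Pgm1 (r = 0.967) and Pdgfb (r = 0.937), and for Pgk1 Ldaf1 (r = 0.944) and Trib3 (r = 0.896). The second for Aldoa was Ppme1 (r = 0.944), for Eno1 Lsm10 (r = 0.945), for Pkm Oaf (r = 0.947) and for Ldha Rnf121 (r = 0.960). The first for Pkm, the processed pseudogene Gm6560 (r = 0.985), matches the Pkm transcript at 98.4% identity over 1593 bases, and the first for Eno1 and Pfkl, Gm5855 (r = 0.959 and 0.949), matches Eno1 at 96.3% over 1306 bases, so reads of gene and copy may have been split. All annotated near copies of Pkm together held 1.08% as many counts as Pkm, and those of Aldoa, Pgk1, Eno1 and Ldha at most 0.346% of theirs.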

How the data were processed

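Poly-A RNA of 15 organoid libraries (5 conditions, 3 each) was sequenced in pairs with a kit that does not mark strand. The authors trimmed reads with cutadapt 4.5, aligned them with STAR to mm39 (GRCm39), kept unique alignments and counted them per gene with HTSeq 2.0.2 in union mode without strand. The deposited files hold these raw read counts. The Ensembl release was not given in the sources used here (overlaps and transcript lengths are from GENCODE M39, which holds 78168 of the 78298 gene IDs). In each library 1.83% to 6.095% of reads fell on no gene and 9.65% to 13.557% on several, and these were left out. The authors' tables of fold changes and p-values per comparison, and their normalized counts, were not used.

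Counts were fitted with edgeR 4.0.16 (R 4.3.3, limma 3.58.1; quasi-likelihood F test, TMM, filterByExpr, 1 coefficient per condition, all 15 libraries), with p-values adjusted over 17560 genes and the thresholds of the report. The common biological coefficient of variation was 0.302. Samples were grouped by their labels. Isozyme ratios within libraries (pseudocount 0.5) were compared by exact permutation. The fit was tested on simulated data. Alternatives were DESeq2 1.42.0, RLE scaling, library sizes alone, no filter on low counts, other thresholds, fits of the compared libraries only, leaving out each library, a replicate block and, added later, lengths of unshared bases only. Same-numbered libraries deviated together (r over 0.1) in all 3 pairs only between SOX9-Halo_budding and SOX9-Halo_spheroid (r 0.18 to 0.311). Larger single values stood between other conditions, with 2 of 3 pairs over 0.1. Examples are Halo-NLS with SOX9-Halo_budding (r 0.0465 to 0.697) and SOX9-Halo_budding with SOX9-mEGFP_budding (r 0.0530 to 0.654). The numbers were taken, from the data, to pair the SOX9-Halo_budding and SOX9-Halo_spheroid libraries only. A block within that line was added after seeing the data.

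The members and lists were chosen with earlier results of these data known. The text names all members, every other enzyme of the glycolytic steps (some are not reported here), of each other list the 3 most abundant genes called within a line, and the 2 genes most like each member by Pearson's r of log2 CPM among genes with a mean of at least 100 normalized counts. The rest was computed in Python 3.11.15 (scipy 1.17.1, pandas 2.3.3, numpy 2.4.6), and figures were drawn with matplotlib 3.10.9.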

Additional observations from a re-analysis of the deposited data

Results flagged for a closer look

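The interaction term of the edgeR fit, at the thresholds used throughout, asked whether the spheroid against budding change was the same in both lines. It was called for 4 of the 15 other tested enzymes, Bpgm among them. It was called for 17 of 117 tested genes of the other lists, of which 12 are named here. Of the 10 members 0 were called, and of all tested genes 7.39%. The values are differences of log2 fold changes, SOX9-Halo line minus SOX9-mEGFP line. They were -6.67 for Hkdc1, -4.55 for Pklr, -1.18 for Bpgm and 1.84 for Pgam1. Among carriers and regulators they were -6.64 for Slc2a2, -4.24 for Slc5a1, -5.67 for Mlxipl and 4.80 for Mycn. For the X-linked pentose phosphate gene G6pdx the difference was 1.11.

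Among epithelial and enterocyte markers the differences were -1.01 for Epcam, -2.83 for Vil1, -5.23 for Fabp1, -8.59 for Apoa4 and -6.39 for Sis. Csf1r differed by -6.67 and Acta1 by -5.29, both from low levels. The part of cell makeup in these differences was not tested.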

How the results depend on the processing

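The calls of Hk1 and Hk2 within lines (2 members in each line) held with DESeq2, RLE scaling, library sizes alone, no filter on low counts and the replicate block over all conditions. At a log2 fold change of at least 2 the counts were 1 and 0 (SOX9-Halo and SOX9-mEGFP line). In fits of the compared libraries only they were 1 and 1, with the block within the SOX9-Halo line 1 and 1, and on leaving out 1 library 1 to 2 and 0 to 2. Of all 17560 tested genes, 2985 and 1934 were called at that log2 fold change, instead of 4435 and 2885. With the block within the SOX9-Halo line 4391 and 2848 were. Fits of the compared libraries only called 4164 of 15825 and 2957 of 15907. Against Halo-NLS, at a log2 fold change of at least 2, 0 members instead of 3 were called in SOX9-Halo_spheroid and 0 instead of 3 in SOX9-mEGFP_spheroid. With the block within the SOX9-Halo line 1 was called in SOX9-Halo_spheroid. Of all 17560 tested genes, 3183 and 2629 were called at that log2 fold change, instead of 5074 and 4823. With that block 4268 were called in SOX9-Halo_spheroid. In SOX9-Halo_budding 2 instead of 0 were called at an adjusted p of at most 0.05 (Eno1, Ldha), 1 by DESeq2 and 1 without the filter (both Ldha). On leaving out 1 library 0 to 2 were called there, and between the budding conditions 1 without the filter (Hk1). In SOX9-Halo_budding 2071 of all 17560 tested genes were called at that adjusted p, instead of 659. DESeq2 called 1602 of 52932 genes and the fit without the filter 2357 of 52932. Leaving out 1 library of that comparison gave 201 to 2370 calls over all tested genes. Between the budding conditions the fit without the filter called 280 of 52932 genes.

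Values turned in sign only for results that were not called. Aldoc within the SOX9-mEGFP line was 0.0111 with the replicate block, and Pkm in SOX9-mEGFP_spheroid against Halo-NLS was 0.21 with library sizes alone and 0.0142 without the filter. With the block within the SOX9-Halo line, Pgk1 was 0.0536 in SOX9-Halo_spheroid against Halo-NLS and 0.0509 between the budding conditions, and Aldoa was 0.16 between the spheroids. On leaving out 1 library the log2 fold change within the SOX9-Halo line ran from -0.0754 to 0.53 for Pfkl, -0.17 to 0.35 for Eno1 and -0.33 to 0.0885 for Ldha, and the Pfkp to Pfkl log2 ratio from -0.0272 to 0.24. Within the SOX9-mEGFP line it ran from -0.41 to 0.20 for Aldoc and -0.34 to 0.0666 for Ldha. It ran from -0.22 to 0.12 for Pkm (SOX9-mEGFP_spheroid against Halo-NLS), -0.00631 to 0.34 for Hk2 (SOX9-Halo_budding against Halo-NLS), -0.10 to 0.45 for Hk1 (SOX9-mEGFP_budding against Halo-NLS), -0.0619 to 0.24 for Hk1 and -0.31 to 0.0421 for Aldoa (between spheroids) and -0.28 to 0.13 for Hk2 (line difference). The cause was not tested.

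Scaling by library sizes alone moved the median log2 fold change of all genes in SOX9-Halo_spheroid against Halo-NLS from -0.01 to 0.28, and RLE scaling gave -0.04. It was -0.50 without the filter on low counts and -0.60 in the DESeq2 fit, which also kept genes of low counts. Against Halo-NLS, some alternatives called 4 members instead of 3. At an adjusted p of at most 0.05, calls over all 17560 tested genes also went from 5074 to 5922 (SOX9-Halo_spheroid) and from 4823 to 5873 (SOX9-mEGFP_spheroid). Aldoc was added in SOX9-Halo_spheroid without the filter, with the replicate block over all conditions and at an adjusted p of at most 0.05, and Eno1 in SOX9-mEGFP_spheroid with DESeq2, in the fit of the compared libraries only, with the block within the SOX9-Halo line and at an adjusted p of at most 0.05. With 3 harvests of 1 line per condition, a missed call does not show that levels were alike.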
